A study of Rattus norvegicus with 20 samples.

Results

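Endothelial identity genes are genes whose RNA marks the cells that line blood and lymph vessels, and 36 of them were followed here in rat lung after abdominal sepsis and vagus nerve stimulation. They were taken as a fixed list of gene symbols. This list, and the other gene lists used below, were chosen with earlier results of these data known. Of the 36, 34 had a row among the 19060 genes of the expression table, and Robo4 and Car4 were not analysed here. Expression of 33 passed the filter on low counts, and Prox1 did not. The list holds surface, junction and adhesion proteins, transcription factors, genes known from mouse lung to mark capillaries, and signalling and cytoskeleton adaptors. Bmx is listed as arterial, Vwf and Ackr1 as venous, and Lyve1 and Prox1 as lymphatic.

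RNA of whole lung was sequenced from 20 rats in 4 groups of 5. The CLP + VNS rats had cecal ligation and puncture (CLP), in which the cecum is tied off and pierced so that its contents leak into the abdomen, the study's model of acute respiratory distress syndrome, together with stimulation of the right cervical vagus nerve (VNS). The CLP rats had the operation alone. The Sham + VNS rats had the stimulation after a laparotomy in which the cecum was handled but neither tied nor pierced, and the Sham rats had that laparotomy alone. All groups thus share an opened abdomen, and no label gives the strain, sex, age or time of sampling. Replicate numbers are those of the sample titles, and p-values measure only the spread between these animals.

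Endothelial cells hold their identity through transcription factors of the ETS family, such as ERG and FLI1, and of the SOXF group, SOX7, SOX17 and SOX18, which keep junction and surface genes switched on. The lung holds one of the densest capillary beds of the body, and its lining controls leak of fluid and entry of leukocytes, both of which change in sepsis. In bulk tissue, fewer endothelial cells and less RNA per endothelial cell cannot be told apart.

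The promoter sequences of 3 members with lower expression after CLP and of Bmx, the member with the highest change, are shown because ERG and FLI1 are themselves members and bind DNA at an ETS core. Each run gives the 250 bases before the annotated gene start, 5′ to 3′ on the gene's strand, from RefSeq with coordinates of the GRCr8 build, and capitals mark the ETS core AGGAAG.
Cd34, chr13:109008536-109008785, plus strand: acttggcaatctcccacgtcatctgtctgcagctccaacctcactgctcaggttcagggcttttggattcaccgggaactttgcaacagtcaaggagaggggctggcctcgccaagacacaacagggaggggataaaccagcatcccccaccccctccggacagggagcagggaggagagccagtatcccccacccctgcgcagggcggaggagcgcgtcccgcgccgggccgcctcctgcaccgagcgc
Plvap, chr16:18231280-18231529, minus strand: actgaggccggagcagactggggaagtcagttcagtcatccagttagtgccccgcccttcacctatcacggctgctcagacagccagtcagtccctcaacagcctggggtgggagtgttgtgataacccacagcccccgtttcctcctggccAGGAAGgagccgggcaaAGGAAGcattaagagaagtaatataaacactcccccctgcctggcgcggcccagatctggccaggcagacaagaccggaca
Myct1, chr1:44423228-44423477, plus strand: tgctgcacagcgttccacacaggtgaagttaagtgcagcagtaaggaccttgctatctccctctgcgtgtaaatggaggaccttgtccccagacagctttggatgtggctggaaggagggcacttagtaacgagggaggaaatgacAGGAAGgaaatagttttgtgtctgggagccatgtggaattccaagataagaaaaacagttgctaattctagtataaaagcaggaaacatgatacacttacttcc
Bmx, chrX:33858878-33859127, plus strand: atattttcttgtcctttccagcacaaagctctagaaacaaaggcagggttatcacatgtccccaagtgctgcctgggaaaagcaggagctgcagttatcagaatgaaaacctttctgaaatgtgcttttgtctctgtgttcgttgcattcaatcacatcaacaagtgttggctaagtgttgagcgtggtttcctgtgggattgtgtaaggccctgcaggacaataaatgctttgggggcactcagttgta

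RefSeq promoters, searched over the same 250 bases before the gene start, could be matched for 18 of the 34 members in the table. The 6-letter ETS core AGGAAG, read on both strands, was present in 10 of the 18 (55.6%), against 31.3% of all genes over the same stretch (8585 of 27457). It occurred in 7 of 11 members lower after CLP (63.6%), in 3 of 6 that were not called and not in Bmx. In the runs shown, Plvap held it at bases 81 and 98 before the gene start, Myct1 at base 104, and Cd34 and Bmx held none in this stretch. The SOX core ACAATG was found in 1 of the 18 (5.56%), the promoter of Erg, against 11.9% of all genes. These letters describe the sequence and do not show that a factor binds there.

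Levels between genes were compared as TPM, a relative transcript abundance that divides by transcript length. In Sham lungs Tspan7, which encodes a membrane protein of the tetraspanin family, stood first at a mean of 803 TPM, followed by Plvap at 605 TPM and Tmem100 at 541 TPM. The lowest were Bmx at 3.50 TPM, Ackr1 at 3.42 TPM and Prox1 at 0.130 TPM. The defining markers Pecam1, Cdh5, Tie1, Tek, Kdr, Egfl7, Esam and Erg were all present in every lung, with the lowest value, 35.4 TPM, for Kdr in a CLP lung. Summed over the 34 members, the level ran from 3352 to 4930 TPM in CLP + VNS, 2978 to 3719 TPM in CLP, 3926 to 4716 TPM in Sham + VNS and 4108 to 4810 TPM in Sham. Every CLP lung lay below every Sham lung in this sum. Of the CLP + VNS lungs, replicate 1, at 3352 TPM, lay within the CLP range, and the other 4 lay above every CLP lung.

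Libraries were of similar depth, with 13729646 to 14453181 counts each, and levels of 1 gene between groups are given below as CPM, read counts scaled to library size. CLP + VNS replicate 1 stood apart among its group in the members: its median log2 deviation from the Sham mean was -0.30, against -0.03 to 0.24 in the other 4 CLP + VNS lungs. The same median ran from -0.45 to -0.18 in CLP, from -0.09 to 0.15 in Sham + VNS and from -0.11 to 0.07 in Sham. Results that this library moves are given with and without it. Sham replicate 1 held the most adipocyte marker RNA, a summed 1583 CPM. Without this library 18 members were called in CLP against Sham, against 19 with it. Over all genes, 2767 were then called higher and 2816 lower of 14846 tested, against 2926 and 3029 of 14794 with it.

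**Figure D1:**
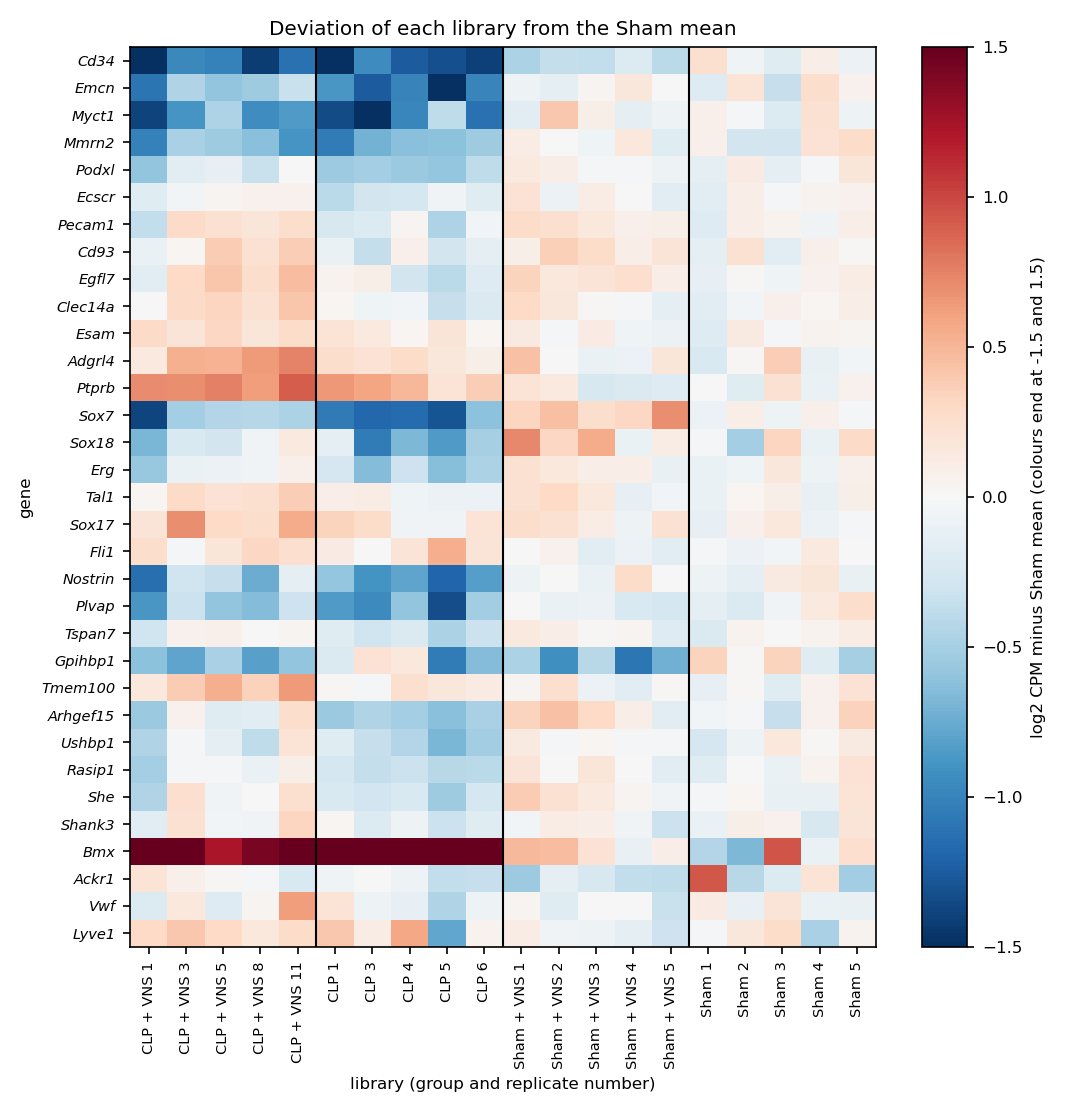
The heat map gives 1 row per member tested and 1 column per lung, and colour shows log2 CPM minus the Sham mean, with colours ending at -1.5 and 1.5. The CLP columns are blue for Cd34, Emcn, Myct1, Sox7, Nostrin and Plvap and red for Bmx, and CLP + VNS replicate 1 is bluer than the other 4 CLP + VNS lungs.

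The first comparison, CLP against Sham, asked which endothelial genes changed in septic lungs without stimulation. After CLP 16 of the 33 members tested fell, 3 rose and 14 were not called. The log2 changes ran from -1.29 for Cd34 to 1.65 for Bmx, with a median of -0.26, against a median of -0.01 over all genes. Members called made up 57.6%, beside 40.3% of all 14794 genes tested (19.8% higher and 20.5% lower), by edgeR's quasi-likelihood test at a Benjamini-Hochberg adjusted p below 0.05 over all genes. The CLP and Sham lungs did not overlap for 12 of the members that fell and for 1 that rose, where 12.7% of all genes lay fully lower and 13.4% fully higher. The number of members called ran from 16 to 19 when single libraries were left out. Scaled by library totals alone, 16 members were lower and 2 higher, and the genes called over the whole table were 2341 higher and 3763 lower, in place of 2926 and 3029.

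Among the 13 surface, junction and adhesion genes tested, 6 fell and 1 rose. Cd34, a sialomucin of the luminal surface that also marks blood progenitors and some stromal cells, had 15.5, 23.3, 19.0, 18.0 and 17.1 CPM in CLP lungs, against 53.4, 42.9, 39.7, 48.2 and 42.2 CPM in Sham lungs. Every CLP lung was below every Sham lung, and the fall was 2.44-fold (log2 change -1.29 ± 0.12 SE, adjusted p = 2.25e-07). Emcn, which encodes the sialomucin endomucin of capillaries and veins, had 46.5, 35.7, 42.4, 26.7 and 42.9 CPM in CLP lungs, against 74.5, 98.2, 66.9, 102 and 88.9 CPM in Sham lungs. Its groups did not overlap either, and it fell 2.21-fold (log2 change -1.15 ± 0.15 SE, adjusted p = 9.38e-06).

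Myct1, a small membrane protein of endothelium, had 8.65, 6.71, 11.2, 17.0 and 10.2 CPM in CLP lungs, against 23.4, 21.8, 19.2, 25.9 and 21.0 CPM in Sham lungs. Its highest CLP lung, replicate 5, lay just under the lowest Sham lung, and the log2 change was -1.05 ± 0.20 SE (adjusted p = 0.000302). Mmrn2, the matrix protein multimerin 2, had 31.2, 39.5, 41.9, 42.4 and 44.9 CPM in CLP lungs, against 68.4, 53.4, 53.3, 75.0 and 78.1 CPM in Sham lungs. Both groups were fully apart, with a log2 change of -0.72 ± 0.13 SE (adjusted p = 0.000167). Its receptors Clec14a and Cd93, C-type lectins of the endothelial surface, were not called, at log2 changes of -0.12 ± 0.09 SE and -0.16 ± 0.10 SE (adjusted p = 0.304 and 0.238).

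Podxl, the sialomucin podocalyxin, fell to 186 to 213 CPM in CLP lungs, against 250 to 314 CPM in Sham lungs (log2 change -0.52 ± 0.09 SE, adjusted p = 0.000136). Its groups did not overlap. Ecscr, a membrane protein of endothelial cells, fell less (log2 change -0.23 ± 0.08 SE, adjusted p = 0.0237), with overlap between the lungs of both groups. The Ecscr call was lost under 7 alternatives, among them the omission of Sham replicate 2, 4 or 5 or CLP replicate 1, 3 or 4.

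Ptprb, the phosphatase VE-PTP that acts on the receptor Tie2 and on vascular cadherin, had 1542, 1475, 1387, 1130 and 1265 CPM in CLP lungs, against 979, 866, 1148, 912 and 1021 CPM in Sham lungs. CLP replicate 5, at 1130 CPM, overlapped with Sham replicate 3, and the rise was 1.38-fold (log2 change 0.46 ± 0.10 SE, adjusted p = 0.00142). The other junction and surface genes were not called. The log2 change was -0.18 ± 0.11 SE for Pecam1, the adhesion molecule CD31 (adjusted p = 0.209), and 0.12 ± 0.06 SE for Esam, a second adhesion molecule of tight junctions (adjusted p = 0.136). It was -0.14 ± 0.10 SE for Egfl7, a secreted factor of vessel growth (adjusted p = 0.314), and 0.19 ± 0.12 SE for Adgrl4, an adhesion receptor (adjusted p = 0.226). Without Sham replicate 3, Adgrl4 was called higher (log2 change 0.29, adjusted p = 0.043).

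**Figure D2:**
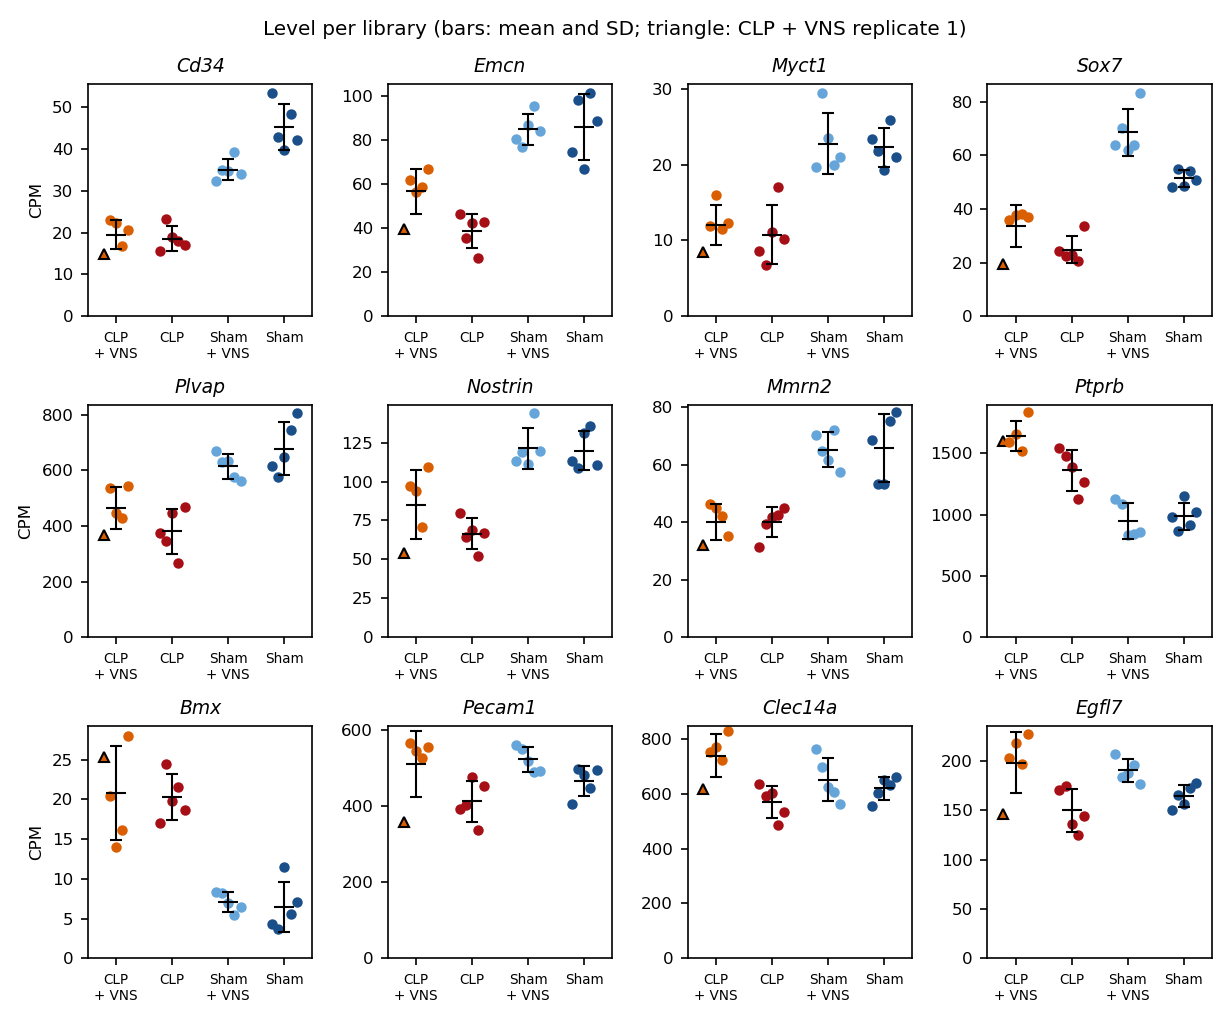
Each of the 12 panels gives the CPM of 1 member in every lung, as points, with bars for the group mean and SD and a triangle for CLP + VNS replicate 1. Cd34, Emcn, Myct1, Sox7, Plvap, Nostrin and Mmrn2 lie lower in CLP than in Sham and Bmx lies higher, with no overlap, and Ptprb lies higher with 1 overlap.

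Of the 6 transcription factors, 3 fell, 1 rose and 2 were not called. Sox7 had 24.5, 22.6, 23.0, 20.8 and 33.6 CPM in CLP lungs, against 48.4, 54.8, 48.8, 54.3 and 50.7 CPM in Sham lungs. No CLP lung reached the Sham lungs, and the fall was 2.06-fold (log2 change -1.05 ± 0.15 SE, adjusted p = 2.53e-05). Its SOXF relative Sox18 had 57.1, 30.4, 39.5, 34.7 and 44.4 CPM in CLP lungs, against 62.3, 44.3, 78.7, 58.9 and 76.9 CPM in Sham lungs. Sox18 fell 1.56-fold with overlapping groups (log2 change -0.64 ± 0.20 SE, adjusted p = 0.0139). Sox17, the third SOXF gene, was not called, at 0.15 ± 0.10 SE (adjusted p = 0.258).

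Erg and Fli1 are related ETS factors, and their calls after CLP had opposite signs. Erg had 79.7 to 105 CPM in CLP lungs, against 117 to 141 CPM in Sham lungs, with no overlap (log2 change -0.46 ± 0.10 SE, adjusted p = 0.00152). Fli1, which leukocytes and platelets also express, had 67.8 to 98.9 CPM in CLP lungs, against 63.7 to 74.9 CPM in Sham lungs (log2 change 0.22 ± 0.08 SE, adjusted p = 0.0426). That call rested on CLP replicate 5, the lung at 98.9 CPM: without it the log2 change was 0.125 (adjusted p = 0.172), and the call was lost in 10 alternatives in all. Tal1, a helix-loop-helix factor of blood and endothelium, was not called at -0.01 ± 0.08 SE (adjusted p = 0.962).

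Of the 5 capillary genes tested, 3 fell and 2 were not called. Plvap, which encodes the protein of the diaphragms across fenestrae and caveolae, had 375, 347, 446, 267 and 469 CPM in CLP lungs, against 616, 578, 647, 745 and 806 CPM in Sham lungs. All CLP lungs lay below all Sham lungs, and the fall was 1.78-fold (log2 change -0.83 ± 0.14 SE, adjusted p = 7.95e-05). Nostrin, a trafficking protein of endothelial nitric oxide synthase, had 79.7, 64.1, 69.0, 52.3 and 67.1 CPM in CLP lungs, against 113, 109, 131, 136 and 111 CPM in Sham lungs. It too showed no overlap, and it fell 1.80-fold (log2 change -0.85 ± 0.15 SE, adjusted p = 0.000163).

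Tspan7, the most abundant member in Sham lungs, had 719, 659, 701, 584 and 653 CPM in CLP lungs, against 699, 845, 811, 844 and 880 CPM in Sham lungs. Sham replicate 1 lay within the CLP range, and the log2 change was -0.30 ± 0.08 SE (adjusted p = 0.00689). Gpihbp1, which holds lipoprotein lipase on the capillary wall, had 34.5, 46.7, 44.6, 19.4 and 25.6 CPM in CLP lungs, against 50.5, 40.4, 50.6, 35.3 and 28.5 CPM in Sham lungs. The groups overlapped over most of their range, and it was not called (log2 change -0.26 ± 0.21 SE, adjusted p = 0.333). Tmem100, a gene downstream of the receptor ALK1, had 508 to 607 CPM in CLP lungs, against 453 to 600 CPM in Sham lungs, and was not called (log2 change 0.10 ± 0.09 SE, adjusted p = 0.418).

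Of the 5 signalling and cytoskeleton adaptors, 4 fell and 1 was not called. Arhgef15, a guanine nucleotide exchange factor, had 73.5 to 82.6 CPM in CLP lungs, against 89.0 to 144 CPM in Sham lungs (log2 change -0.54 ± 0.14 SE, adjusted p = 0.00389). Rasip1, a Rap1 effector at endothelial junctions, had 92.5 to 103 CPM in CLP lungs, against 109 to 144 CPM in Sham lungs (log2 change -0.36 ± 0.10 SE, adjusted p = 0.00538). For both, all CLP lungs lay below all Sham lungs. Ushbp1 fell with overlap (log2 change -0.43 ± 0.11 SE, adjusted p = 0.00444).

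The SH2 adaptor gene She had 99.0 to 122 CPM in CLP lungs, against 132 to 166 CPM in Sham lungs, a log2 change of -0.31 ± 0.11 SE (adjusted p = 0.032). Its groups did not overlap, but the call was lost in 4 alternatives, including the omission of Sham replicate 2 or 5 or of CLP replicate 5. The scaffold gene Shank3 was not called (log2 change -0.15 ± 0.10 SE, adjusted p = 0.25).

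Of the genes listed as arterial, venous or lymphatic, Bmx rose and the others were not called. Bmx, a kinase of arterial endothelium that myeloid cells also express, had 17.0, 24.4, 19.8, 21.6 and 18.7 CPM in CLP lungs, against 4.38, 3.71, 11.5, 5.56 and 7.12 CPM in Sham lungs. The groups did not overlap, and it rose 3.14-fold (log2 change 1.65 ± 0.25 SE, adjusted p = 3.82e-05). The Sham lung with the most Bmx, replicate 3, also had the most summed neutrophil marker RNA in its group, 854 CPM. The same held for CLP replicate 3 and CLP + VNS replicate 11. In Sham + VNS it did not: replicate 1 had the most Bmx and replicate 2 the most neutrophil marker RNA. Between CLP + VNS and CLP, Bmx changed by 0.03 and the neutrophil markers by a median of -0.74. A link between Bmx and these markers was not tested.

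The genes listed as venous were not called, while Emcn, of capillaries and veins, fell as given above. Vwf, which encodes the clotting factor carrier stored in endothelium and megakaryocytes, had 941, 771, 750, 597 and 772 CPM in CLP lungs, against 889, 754, 934, 762 and 752 CPM in Sham lungs (log2 change -0.10 ± 0.14 SE, adjusted p = 0.624). Ackr1, a chemokine receptor of venules that red cell precursors also make, had 5.93, 6.22, 5.87, 4.76 and 4.85 CPM in CLP lungs, against 11.9, 4.62, 5.37, 7.18 and 4.28 CPM in Sham lungs. Its log2 change was -0.27 ± 0.21 SE (adjusted p = 0.328), and without Sham replicate 1, the lung at 11.9 CPM, it turned to 0.04.

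The genes listed as lymphatic were not called either. In Sham lungs their mean levels were far apart, at 38.9 TPM for Lyve1 and 0.130 TPM for Prox1. Lyve1, a hyaluronan receptor of lymphatic endothelium and some macrophages, had 96.5, 78.4, 108, 42.2 and 75.1 CPM in CLP lungs, against 72.0, 82.0, 87.8, 51.9 and 75.2 CPM in Sham lungs (log2 change 0.12 ± 0.18 SE, adjusted p = 0.628). The lymphatic transcription factor gene Prox1 had 3, 2, 7, 7 and 2 counts in CLP lungs, against 4, 7, 3, 3 and 7 counts in Sham lungs. Over the group its counts summed to 28 in CLP + VNS, 21 in CLP, 28 in Sham + VNS and 24 in Sham. A difference in Prox1 was not detectable at this depth: a two-sided exact permutation test of the mean CPM gave p = 0.659 for CLP against Sham and 0.937 for CLP + VNS against Sham + VNS. The smallest p that 5 against 5 allows is 0.00794, and over the 4 comparisons tested the adjusted p was 0.937.

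**Figure D3:**
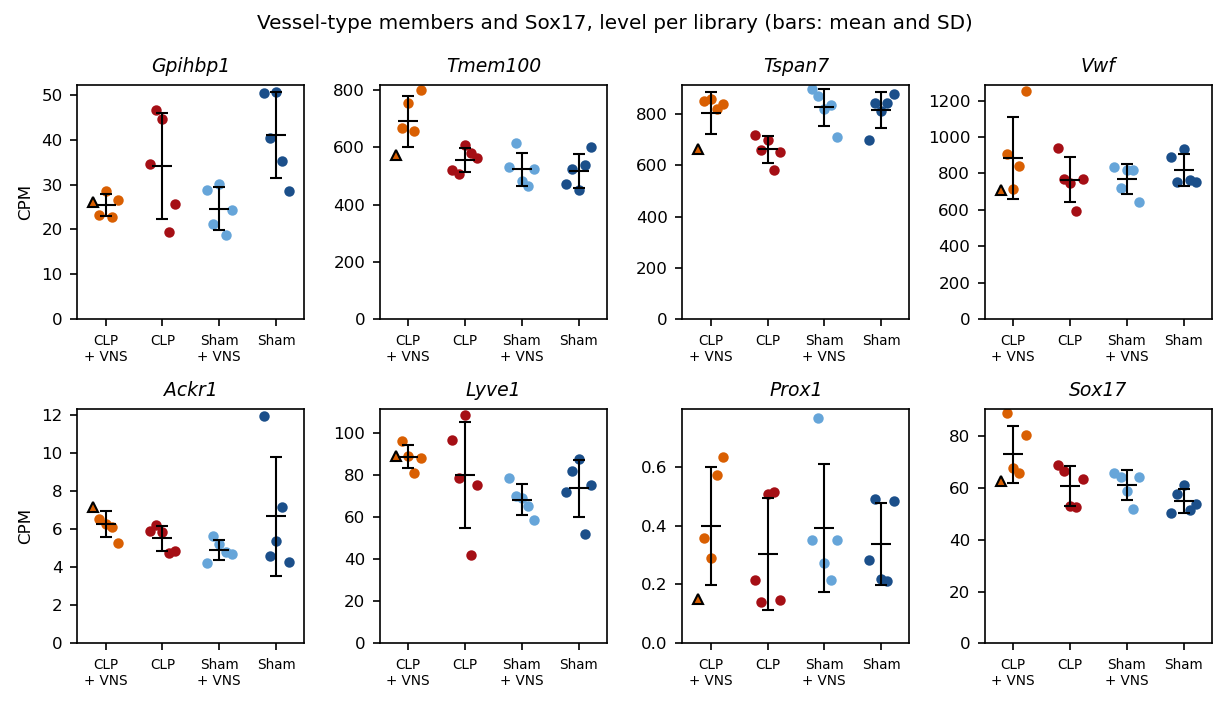
The panels give CPM per lung for Gpihbp1, Tmem100, Tspan7, Vwf, Ackr1, Lyve1, Prox1 and Sox17, as points, with bars for the group mean and SD and a triangle for CLP + VNS replicate 1. The groups overlap in most panels, and Sham replicate 1 stands above the other lungs for Ackr1 at 11.9 CPM.

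The second comparison, CLP + VNS against Sham + VNS, set septic against sham-operated rats when both were stimulated, and shares no library with the first. Here 9 of 33 members fell, 6 rose and 18 were not called (45.5% called, beside 27.3% of all genes, 13.9% higher and 13.4% lower). The median log2 change was -0.03 over the members and -0.01 over all genes. The groups did not overlap for 7 members on the low side and 4 on the high side, beside 9.23% and 9.65% of all genes. Without CLP + VNS replicate 1, 6 members were called lower and 6 higher. Of the 14872 genes tested in that fit, 1743 were called lower and 1771 higher.

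The direction of calls was shared. Cd34, Emcn, Podxl, Myct1, Mmrn2, Sox7, Sox18, Plvap and Nostrin were lower in both comparisons, Bmx, Ptprb and Fli1 were higher in both, and no member was called in opposite directions. That is 12 of the 19 members called in CLP against Sham (63.2%) and 12 of the 15 called in CLP + VNS against Sham + VNS (80%). Over all genes the shares called the same way were 56.3% and 82.9%, so the members' shares were near the background. In stimulated rats Sox7 had the lowest change, at 19.7, 36.1, 37.7, 38.1 and 36.9 CPM in CLP + VNS lungs, against 64.1, 70.1, 61.9, 63.9 and 83.3 CPM in Sham + VNS lungs. The groups were fully apart, with a log2 change of -1.03 ± 0.15 SE (adjusted p = 5e-05).

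Cd34 had 14.9, 23.0, 22.2, 16.8 and 20.6 CPM in CLP + VNS lungs, against 32.3, 35.0, 34.7, 39.2 and 34.0 CPM in Sham + VNS lungs. No CLP + VNS lung reached the Sham + VNS range (log2 change -0.85 ± 0.12 SE, adjusted p = 3.43e-05). Myct1 and Mmrn2 changed by -0.92 ± 0.19 SE and -0.70 ± 0.13 SE (adjusted p = 0.00155 and 0.000342), both without overlap. Emcn had 39.8, 61.9, 56.4, 58.6 and 67.1 CPM in CLP + VNS lungs, against 80.6, 76.9, 87.2, 95.6 and 84.4 CPM in Sham + VNS lungs (log2 change -0.58 ± 0.15 SE, adjusted p = 0.00619). Nostrin changed by -0.51 ± 0.15 SE (adjusted p = 0.0134), again with all CLP + VNS lungs lower.

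Podxl, Plvap and Sox18 had the highest adjusted p among the members that fell. Their log2 changes were -0.26 ± 0.09 SE, -0.40 ± 0.14 SE and -0.54 ± 0.19 SE (adjusted p = 0.0374, 0.0323 and 0.0433). Without CLP + VNS replicate 1 all 3 missed the threshold, at -0.18, -0.33 and -0.44 (adjusted p = 0.101, 0.0885 and 0.115), and single other libraries ended them too.

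On the high side, Bmx had 25.3, 20.4, 14.0, 16.1 and 27.9 CPM in CLP + VNS lungs, against 8.37, 8.21, 6.93, 5.50 and 6.41 CPM in Sham + VNS lungs. The groups did not overlap, and the log2 change was 1.55 ± 0.25 SE (adjusted p = 0.000124). Ptprb had 1597, 1591, 1655, 1519 and 1837 CPM in CLP + VNS lungs, against 1126, 1085, 832, 842 and 860 CPM in Sham + VNS lungs. This separation was complete, unlike that in unstimulated rats (log2 change 0.79 ± 0.10 SE, adjusted p = 1.62e-05). The difference between both changes of Ptprb, 0.32 ± 0.15 SE, did not pass the test (adjusted p = 0.577).

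Esam, Tmem100 and Adgrl4 were called higher in stimulated rats and missed the threshold in unstimulated rats. Esam had 235 to 256 CPM in CLP + VNS lungs, against 195 to 226 CPM in Sham + VNS lungs (log2 change 0.23 ± 0.06 SE, adjusted p = 0.00722). Tmem100 had 574 to 801 CPM in CLP + VNS lungs, against 463 to 613 CPM in Sham + VNS lungs (log2 change 0.40 ± 0.10 SE, adjusted p = 0.00341). Adgrl4 changed by 0.43 ± 0.12 SE (adjusted p = 0.0105) and Fli1 by 0.27 ± 0.08 SE (adjusted p = 0.021). The transcription factor gene Sox17 narrowly missed the threshold at 0.26 ± 0.10 SE (adjusted p = 0.0622), and passed it by DESeq2 (adjusted p = 0.0478) and without CLP + VNS replicate 1 or 8 (adjusted p = 0.0343 and 0.0486). The Fli1 call was lost without Sham + VNS replicate 3 or 5 or CLP + VNS replicate 1 or 8.

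Conversely, Erg, Tspan7, Ecscr and the adaptor genes Arhgef15, Ushbp1, Rasip1 and She fell after CLP in unstimulated rats and were not called in stimulated rats. Erg stood at -0.23 ± 0.10 SE in stimulated rats (adjusted p = 0.105), and Arhgef15 at -0.31 ± 0.14 SE (adjusted p = 0.106). Without Sham + VNS replicate 5 or CLP + VNS replicate 11, Arhgef15 was called lower there too (adjusted p = 0.0398 and 0.0314). Lyve1, listed as lymphatic, had 81.3 to 96.3 CPM in CLP + VNS lungs, against 58.7 to 78.5 CPM in Sham + VNS lungs. Its groups did not overlap, but it was not called (log2 change 0.38 ± 0.18 SE, adjusted p = 0.125). It was called when the 2 groups were fitted alone (adjusted p = 0.00289) and without CLP replicate 5 (adjusted p = 0.0261). Vwf and Ackr1, listed as venous, were not called (log2 change 0.21 ± 0.14 SE and 0.35 ± 0.21 SE, adjusted p = 0.303 and 0.244), and neither was Gpihbp1 (0.04 ± 0.21 SE, adjusted p = 0.91). Pecam1, Cd93, Egfl7, Clec14a, Tal1 and Shank3 were not called in either comparison, and in stimulated rats their log2 changes lay between -0.03 and 0.18.

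**Figure D4:**
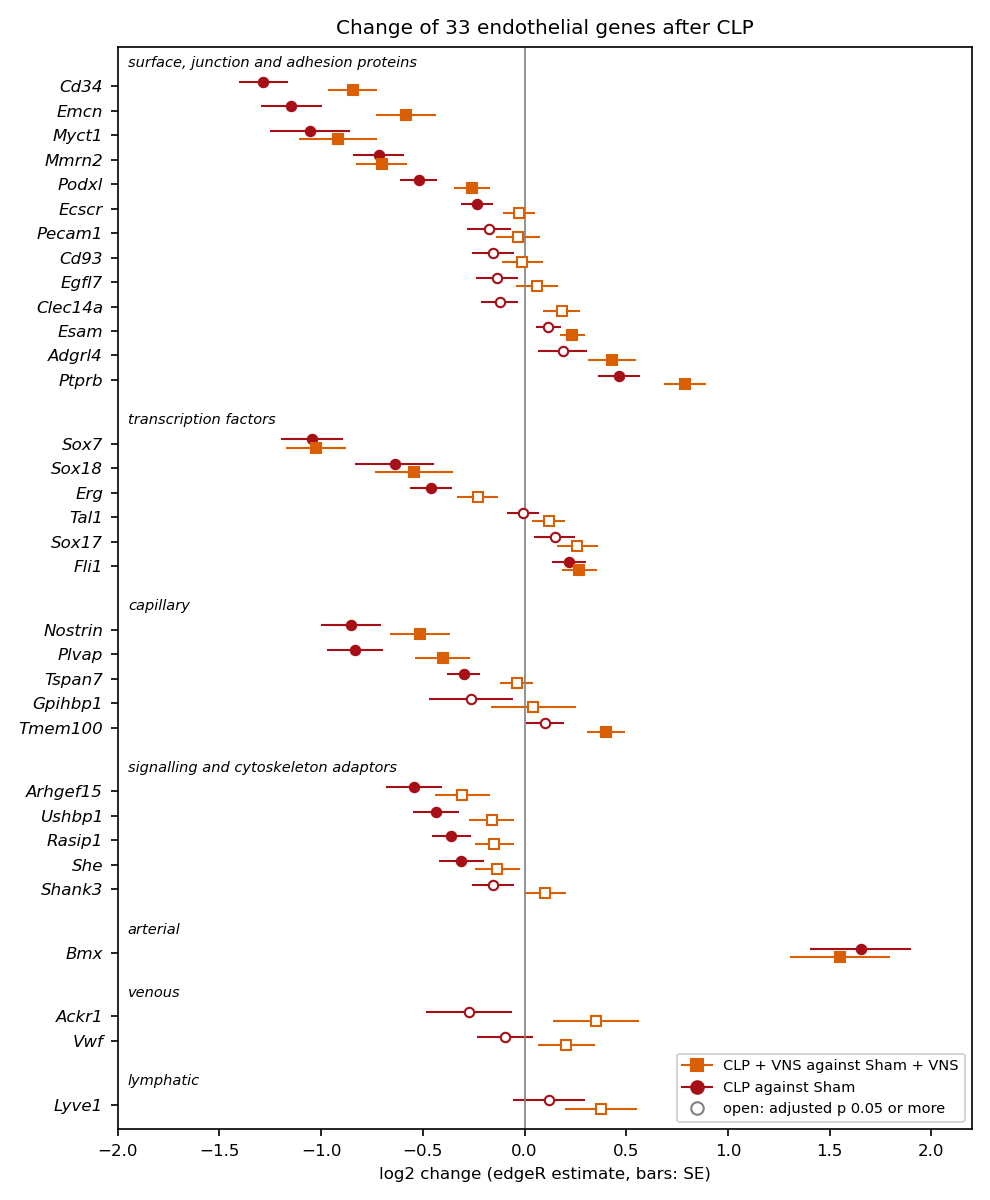
The plot gives the log2 change of 33 members after CLP in stimulated rats (CLP + VNS against Sham + VNS, squares) and in unstimulated rats (CLP against Sham, circles), by role, with bars for the SE and open symbols for an adjusted p of 0.05 or more. Cd34, Emcn, Myct1, Mmrn2 and Sox7 stand left of 0 and Bmx and Ptprb right of 0 in both comparisons, and the square lies to the right of the circle for 32 of 33 members.

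Whether the change after CLP differed between stimulated and unstimulated rats was tested as an interaction. The log2 change was higher in stimulated rats for 32 of 33 members, with a median difference of 0.24, where 52.2% of all genes were positive and their median was 0.01. None of the members passed the adjusted threshold by edgeR or by DESeq2, as was the case for all genes by edgeR (0%). At an unadjusted p below 0.05 there were 7 members, all positive, beside 8.23% of all genes (4.14% positive and 4.08% negative). The smallest adjusted p among members was that of Emcn, at a difference of 0.57 ± 0.21 SE (adjusted p = 0.525). Ackr1 had the highest difference, 0.62 ± 0.30 SE (adjusted p = 0.609). It ran from 0.31 to 0.74 over the alternative fits, and Sham replicate 1, the lung at 11.9 CPM, enters it.

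The third comparison, CLP + VNS against CLP, asked what stimulation did in septic rats. By edgeR no member was called, beside 0.027% of all genes (4 of 14794, all lower). Members lay mostly on the high side: 31 of 33 had a positive log2 change, against 51.4% of all genes, and the median was 0.28, against 0.00 over all genes. Members measured in the same lungs can move together, so their number does not count as separate observations here or in the interaction. At an unadjusted p below 0.05, 24 members were higher and none lower, while 6.35% of all genes were higher and 6.67% lower. For each of the 33 members the 2 groups overlapped, where 2.26% of all genes did not, 1.12% higher and 1.14% lower. This comparison shares the CLP lungs with CLP against Sham and with the interaction, so a low CLP lung moves all of them. Neutrophil markers lay on the other side: all 8 were negative, 4 of them at an unadjusted p below 0.05. Monocyte and macrophage markers were mixed: 6 of 9 were negative, 5 of them at that threshold, and 3 were positive, up to 0.89. None of these was called, and their part in the members' values was not tested.

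The smallest adjusted p belonged to Clec14a, with 617, 753, 772, 724 and 828 CPM in CLP + VNS lungs, against 634, 593, 603, 487 and 533 CPM in CLP lungs. Only CLP + VNS replicate 1 lay within the CLP range, and the log2 change was 0.38 ± 0.09 SE (adjusted p = 0.14). Egfl7 had 147, 203, 219, 197 and 227 CPM in CLP + VNS lungs, against 170, 175, 136, 125 and 144 CPM in CLP lungs (log2 change 0.40 ± 0.10 SE, adjusted p = 0.173). Emcn, at the CPM given above, had the highest change of all members, 0.55 ± 0.15 SE (adjusted p = 0.177). Again it was CLP + VNS replicate 1 that reached into the CLP range for both genes. By DESeq2, these 3 members were called higher (adjusted p = 0.0137, 0.0324 and 0.0409), beside 0.431% of all genes higher and 1.13% called in either direction.

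Without CLP + VNS replicate 1, 13 members were called higher in CLP + VNS and none lower, beside 0.861% of all genes higher and 1% lower (1.86% called). They were Egfl7, Sox7, Pecam1, Clec14a, Erg, Podxl, Emcn, She, Tspan7, Rasip1, Arhgef15, Cd93 and Tmem100. Pecam1 had 360, 565, 546, 528 and 556 CPM in CLP + VNS lungs, against 393, 403, 477, 338 and 453 CPM in CLP lungs. Its log2 change was 0.31 ± 0.11 SE with all lungs (adjusted p = 0.237) and 0.41 without the lung at 360 CPM (adjusted p = 0.019). For Sox7 the log2 change was 0.44 ± 0.15 SE with all lungs (adjusted p = 0.237) and 0.57 without that lung (adjusted p = 0.0149). For Egfl7 it was 0.49 without that lung (adjusted p = 0.0114). Leaving out any other single library left 0 members called. CLP + VNS replicate 1 had the lowest median deviation of its group over these same members. Its omission thus tends to raise their CLP + VNS means, and the 13 calls are not a separate test.

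CLP + VNS replicate 1 differed from its group outside the members as well. The 45 other endothelial genes, none of them a member, summed to 10500 CPM there, the lowest of its group, whose median was 13090 CPM. Its pericyte and smooth muscle markers summed to 427 CPM, also the lowest, and its monocyte and macrophage markers to 1172 CPM, the highest. Its neutrophil markers summed to 2961 CPM, against a group median of 2197 CPM. Replicate 11 had the highest neutrophil sum of the group, 4359 CPM, and also the highest sum of other endothelial genes, 14340 CPM. The part of these differences in the members' result was not tested.

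Several members had log2 changes near 0. Mmrn2 changed by 0.00 ± 0.13 SE between CLP + VNS and CLP, Bmx by 0.03 ± 0.23 SE and Cd34 by 0.07 ± 0.12 SE (adjusted p = 0.997, 0.973 and 0.854). Fli1 changed by -0.02 ± 0.08 SE (adjusted p = 0.943). Gpihbp1 was the other member with a negative value, with 26.1, 23.2, 28.6, 22.7 and 26.6 CPM in CLP + VNS lungs, and its log2 change was -0.43 ± 0.21 SE (adjusted p = 0.403).

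**Figure D5:**
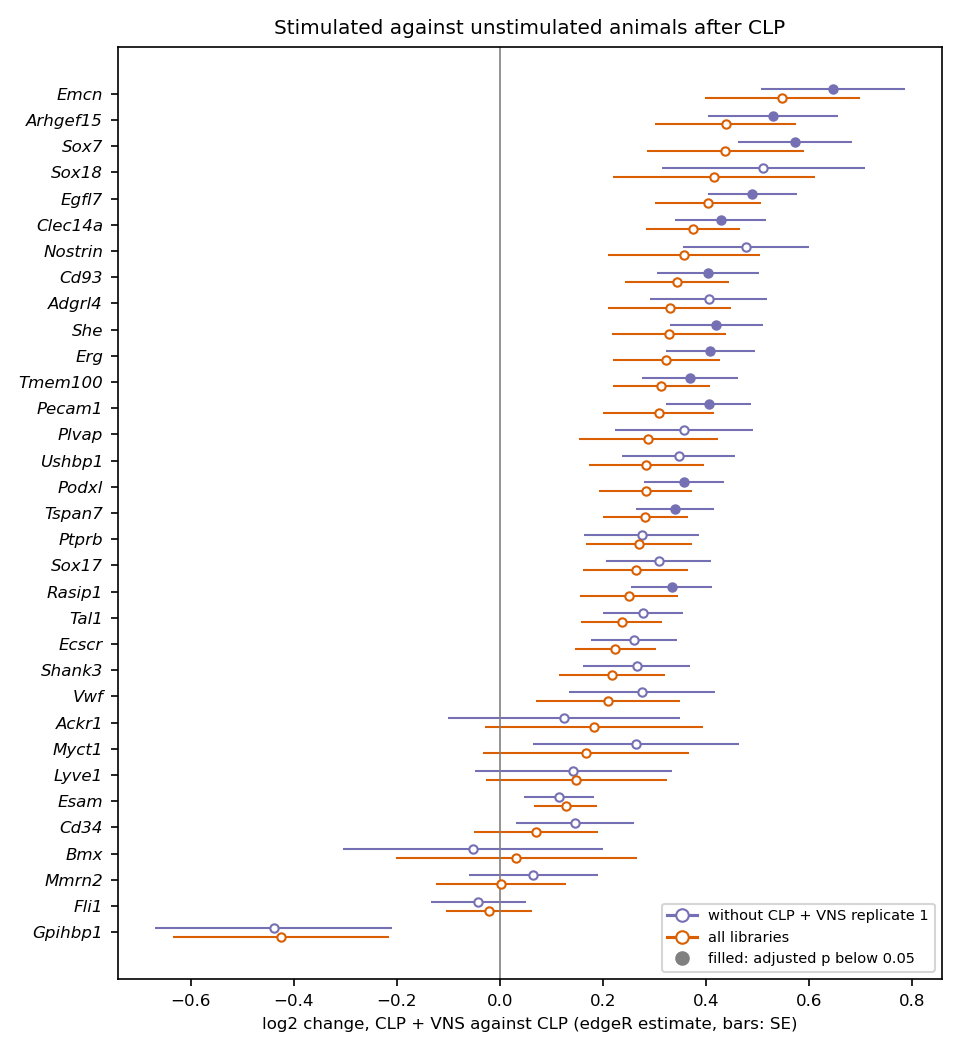
The plot gives the log2 change of each of 33 members in CLP + VNS against CLP without CLP + VNS replicate 1 and with all libraries, with bars for the SE and filled symbols for an adjusted p below 0.05. With all libraries 31 members lie right of 0 and none is filled, and without CLP + VNS replicate 1 13 are filled. That library was singled out by its low values in these same members.

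The fourth comparison, Sham + VNS against Sham, gave the change with stimulation in rats without sepsis. No member was called by edgeR or by DESeq2 (0% of all genes by edgeR). The log2 change was positive for 22 members (66.7%) and negative for 11, with a median of 0.02. Over all genes 47.8% were positive, with a median of -0.01. At an unadjusted p below 0.05 there were 1 higher and 2 lower members, beside 3.92% and 4.09% of all genes (8.01% in either direction). The groups did not overlap for 1 higher and 1 lower member, beside 0.318% and 0.48% of all genes (0.798% in either direction). The higher one, Sox7, had 64.1, 70.1, 61.9, 63.9 and 83.3 CPM in Sham + VNS lungs, against 48.4, 54.8, 48.8, 54.3 and 50.7 CPM in Sham lungs, without overlap (log2 change 0.42 ± 0.15 SE, adjusted p = 0.568). Cd34, at the CPM given above, was fully lower in Sham + VNS (log2 change -0.37 ± 0.12 SE, adjusted p = 0.56). Gpihbp1 had 28.9, 21.2, 30.1, 18.8 and 24.3 CPM in Sham + VNS lungs, against 50.5, 40.4, 50.6, 35.3 and 28.5 CPM in Sham lungs. Only 1 Sham lung, replicate 5, fell within the range of the stimulated rats, and the log2 change was -0.73 ± 0.21 SE (adjusted p = 0.497). None of these 3 differences passed the test.

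Other endothelial genes were followed through a second list of 45, of which 44 were tested. The list includes Pdpn, which is also among the alveolar type 1 markers used below. After CLP 20 fell and 10 rose, with a median log2 change of -0.25, so that 68.2% were called, beside 40.3% of all genes. The lowest changes belonged to Tm4sf1, a surface protein of the tetraspanin-like family (-1.32 ± 0.32 SE), Tbx2, a T-box factor (-1.25 ± 0.16 SE), Kdr, the receptor VEGFR2 (-1.25 ± 0.15 SE), and Aplnr, the apelin receptor (-1.13 ± 0.13 SE). The highest belonged to Procr, the receptor of protein C (1.03 ± 0.23 SE), Fibin (0.94 ± 0.22 SE), Nos3, the endothelial nitric oxide synthase (0.89 ± 0.13 SE), and Ednrb, an endothelin receptor (0.86 ± 0.15 SE). In CLP + VNS against Sham + VNS, 10 of the 44 fell and 11 rose, with a median of 0.02 (47.7% called, beside 27.3% of all genes). In CLP + VNS against CLP no gene of this list was called, and 37 of 44 were positive (84.1%, beside 51.4% of all genes), with a median of 0.24.

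Markers of other cells moved with the same comparisons. Over all genes, 19.8% were called higher and 20.5% lower in CLP against Sham. In CLP + VNS against Sham + VNS these shares were 13.9% and 13.4%. Neutrophil markers summed to 1606 to 4359 CPM in CLP + VNS, 2844 to 4601 CPM in CLP, 307 to 666 CPM in Sham + VNS and 344 to 854 CPM in Sham, and 7 of 8 were called higher in CLP against Sham. The eighth, Retnlg, was called lower (log2 change -1.41 ± 0.40 SE, adjusted p = 0.00884). Monocyte and macrophage markers, 7 of 9 higher, summed to 1070 to 1328 CPM in CLP, against 627 to 780 CPM in Sham. In CLP + VNS against Sham + VNS, 5 of 8 neutrophil markers and 5 of 9 monocyte and macrophage markers were called higher, and 1 of each was called lower, Retnlg (log2 change -2.71 ± 0.43 SE) and Csf1r (-0.69 ± 0.11 SE). Myeloid cells are known to express Bmx and Fli1, and some macrophages Lyve1, and their part in the members' changes was not tested. Platelet and megakaryocyte markers, with which Vwf, Pecam1 and Fli1 are shared, summed to 46.6 to 73.2 CPM in CLP, against 24.6 to 35.2 CPM in Sham, and 2 of 6 tested were called higher.

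Markers of other lung wall cells were lower beside the members that fell. Of 7 alveolar type 1 markers 5 fell after CLP, to summed levels of 4299 to 6698 CPM in CLP, against 6305 to 8719 CPM in Sham. Of 8 pericyte and smooth muscle markers 4 fell, to 436 to 689 CPM in CLP, against 640 to 796 CPM in Sham. All 8 T cell markers and 4 of 6 B cell markers fell. Only 1 of 6 erythroid (16.7%) and 1 of 7 mast cell markers (14.3%) did, beside 20.5% of all genes called lower. Of 6 alveolar type 2 markers 2 rose (33.3%, beside 19.8% of all genes called higher). Of the 4 adipocyte markers tested 3 fell, with most of their RNA in Sham replicate 1. In CLP + VNS against Sham + VNS, where the members' median was near 0, 6 of 7 alveolar type 1, 7 of 8 T cell, 3 of 6 B cell and 2 of 8 pericyte and smooth muscle markers were called lower. Of all genes, 13.4% were called lower there. Among all these markers, 1 adipocyte marker was at 0 in all CLP lungs, and no other was at 0 in a whole group. The part of these cells in the members' changes was not tested.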

How the data were processed

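RNA was extracted from whole lung with TRIzol, selected for poly(A) and sequenced as strand-specific paired reads, per the labels' protocols. The submitters' processing notes name the genome build mRatBN7.2. Read counter, annotation and use of strand in counting were not given in the sources used here. The authors deposited estimated counts per gene, of which 91.5% were whole numbers, and TPM values per gene and transcript. TPM, as deposited, divides by transcript length and was used here for levels between genes.

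The members, their roles and the other gene lists were chosen with earlier results of these data known. Estimated counts were rounded to whole numbers. Genes were kept with filterByExpr (minimum count 10), scaled with TMM and fitted in edgeR 4.0.16 (R 4.3.3) with robust quasi-likelihood and 4 group means over all 20 libraries. The fit left 16 residual degrees of freedom. P-values were adjusted by Benjamini-Hochberg over 14794 genes and called at 0.05. The deposited data held 56 further gene columns and 76 further transcript columns that were not used. CPM are counts divided by the TMM-scaled library size. Heat map values used log2(CPM + 0.1). The fit was tested on simulated counts with known changes. Each library holds about the same depth (13729646 to 14453181 counts), so precision differs little between lungs.

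Every member was reported. Values per library or full statistics were given for members with the 8 highest and 8 lowest changes called in CLP against Sham, for members called elsewhere, and for capillary, venous and lymphatic genes. Of the other endothelial genes, those called with the 4 highest and 4 lowest changes were named. Alternatives were RLE factors, library totals, no filter, DESeq2 1.42.0, fits of the groups compared alone, a block for replicate number and the omission of each library. The replicate numbers do not pair animals by any label.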

Additional observations from a re-analysis of the deposited data

Results flagged for a closer look

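Within each group of 5, the highest or lowest library was set against the gap to its nearest neighbour, divided by the whole range of the group (Dixon's 95% critical value 0.71). Of 136 groups, 7 passed, where chance flags about 1 in 20, or 6.8. CLP + VNS replicate 1 was far below its group for Pecam1, at 360 CPM against 528 to 565 CPM in the others. It was also far below for Sox7, at 19.7 CPM against 36.1 to 38.1 CPM, and for Tspan7, at 663 CPM against 819 to 859 CPM. CLP replicate 6 stood above its group for Sox7, at 33.6 CPM against 20.8 to 24.5 CPM. CLP replicate 5 stood below its group for She, at 99.0 CPM against 118 to 122 CPM. Sham + VNS replicate 4 stood above its group for Nostrin, at 144 CPM against 112 to 119 CPM. Sham + VNS replicate 2 stood above its group for Prox1, at 0.765 CPM, which is 11 counts, against 0.214 to 0.352 CPM.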

How the results depend on the processing

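Members called in CLP against Sham ran from 16 to 19 and those in CLP + VNS against Sham + VNS from 11 to 16 when single libraries were left out. With a replicate block, 8 members were called in CLP + VNS against Sham + VNS, 3 higher and 5 lower, and 6 other endothelial genes lower. The labels do not pair the numbers: over 22 same-numbered pairs the correlation of deviations ran from -0.163 to 0.178 (median 0.00353), and 4 libraries correlated best with their own number. With the block, 2393 genes were higher and 2339 lower in CLP against Sham, and 1135 and 974 in CLP + VNS against Sham + VNS, whose main counts were 2060 and 1984. The block ended the calls of Tspan7, Ecscr, Fli1 and She in CLP against Sham, and of Esam, Adgrl4, Podxl, Emcn, Fli1, Plvap and Nostrin in CLP + VNS against Sham + VNS. Under it the log2 change was 0.263 for Adgrl4 and -0.849 for Sox18 in CLP + VNS against Sham + VNS. In CLP + VNS against CLP, 3 members were higher with DESeq2, and 0 to 13 with single libraries left out, 13 without CLP + VNS replicate 1. DESeq2 called 55 genes higher and 89 lower there, and the omission of that library 128 and 149, against 0 and 4. The causes were not tested.

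Changes of sign occurred only among uncalled members. In CLP against Sham they were Tal1 (0.042 with the replicate block, -0.034 to 0.018 without single libraries), Ackr1 (-0.394 to 0.041, positive without Sham replicate 1) and Lyve1 (-0.014 to 0.279, negative without CLP replicate 4). In CLP + VNS against Sham + VNS, single omissions gave -0.073 to 0.068 for Pecam1 and -0.088 to 0.023 for Tspan7 (both positive without CLP + VNS replicate 1), -0.062 to 0.055 for Cd93, -0.074 to 0.02 for Ecscr and -0.039 to 0.125 for Gpihbp1. The replicate block gave -0.021 for Egfl7 and -0.01 for Vwf. The interaction was not refitted on 2 groups, and the exact tests of Prox1 were not repeated. Counts of 2 to 11 per lung limit what can be said of Prox1.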

Other observations

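The transcript table, used as a description only, held 92 transcripts for the 34 members. Of the members, 13 had 1 transcript and 21 had more, up to 9 for Pecam1. The group means of the leading transcript's share of the gene's summed TPM differed by 8.1 percentage points or more in 9 of the 21 and by 5.8 or less in the other 12. The gap was 29.5 points in Arhgef15, 18.2 in Bmx, 14.1 in She, 11.8 in Sox17 and 10.9 in Adgrl4, and at most 0.2 in Fli1, Tspan7, Esam and Nostrin. The leading Bmx transcript, NM_001109016, held 87.2% ± 5.5 in CLP + VNS, 96.1% ± 3.9 in CLP, 77.9% ± 4.7 in Sham + VNS and 90.5% ± 8.9 in Sham (SD, n = 5 each). Arhgef15, the exchange factor gene, varied between animals of the same group more than any other member with several transcripts. Its transcript XM_008767792 held 79.4%, 42.4%, 76.7%, 28.6% and 42.3% in CLP + VNS lungs, 71.1%, 92.0%, 78.0%, 62.0% and 92.2% in CLP lungs, 38.8%, 40.5%, 39.6%, 37.8% and 91.6% in Sham + VNS lungs and 43.8%, 92.0%, 98.4%, 84.4% and 34.4% in Sham lungs. The widest range within a group was 64.0 percentage points. In Egfl7, transcript XM_006233668 held 61.6% to 69.9% in CLP lungs, against 55.6% to 62.9% in Sham lungs. These shares are estimates of how reads divide between overlapping transcripts and were not tested.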
